A study of Rattus norvegicus with 56 samples.

Results

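The comparison set intermittent theta burst stimulation (iTBS) directly against 1 Hz stimulation in cultured rat hippocampal neurons at 0 h, that is, with RNA isolated as soon as stimulation ended. The arrays were chosen by their titles, 4 for iTBS at 0 h and 3 for 1 Hz at 0 h, 7 of the 56 arrays of the series, and no sham array entered the contrast. Both groups were primary cultures from hippocampi of E18 Sprague-Dawley rats, and both received repetitive transcranial magnetic stimulation (rTMS) from an inverted coil directly beneath the dish at 1 common stimulator output and with the same total number of pulses. The groups therefore differed in how the pulses were arranged in time: single pulses at a steady 1 Hz, or short high-frequency bursts repeated at theta rhythm and broken by pauses. By the study's protocol both were given in spaced blocks, and the 1 Hz session took somewhat longer. RNA at 0 h was thus taken well after the first pulses, at a time since onset that differed between the groups. Sham dishes, with the coil held away, and untreated dishes at 0 h are used here only as background levels. A dish under a coil holds dissociated neurons and glia without the wiring of the hippocampus, which limits it as a model of stimulated brain, and the sources do not say whether replicates were separate culture preparations, so p-values measure the spread between these samples, which may be in part technical.

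In clinical and experimental use, 1 Hz stimulation is held to lower cortical excitability and theta burst stimulation given intermittently to raise it. Neurons translate activity into transcription through immediate-early genes, which need no new protein synthesis: calcium entry activates kinases that phosphorylate CREB and serum response factor, and within minutes Fos, Egr1, Npas4 and Arc are transcribed. A later wave of effectors such as Bdnf, Nptx2 and Pcsk1 then changes synapses and secretory granules, while phosphatases such as Dusp1 shut the MAP kinase signal down.

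Each sample was hybridised to a one-colour Agilent rat array with 58717 gene spots for 45598 different probes. Levels are given as scaled log2 signals, in which 0 is the array's own mean and each array has the same spread, and differences are iTBS minus 1 Hz on that scale. On the 7 arrays 70.7 to 74.2% of gene spots were well above background, the 75th percentile of the signal lay between 3236 and 4537, and 0 spots were saturated. All 12 neuron markers were well above background on each of the 7 arrays. The number of arrays, 4 against 3, limits the precision: the median standard error of a probe's difference was 0.37.

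The sample numbers in the descriptions run repeatedly through sham, 1 Hz and iTBS, and 4 consecutive runs were read from them, called series A to D here. What a series stands for is not given in the sources used here. At 0 h the series B, C and D each held 1 array of either protocol, which gives 3 matched pairs (iTBS replicates 1, 2 and 4 with 1 Hz replicates 1, 2 and 3, in that order), and iTBS replicate 3 came from series A, where no 1 Hz array was analysed here. By the barcodes in the file headers, the arrays of a pair shared a slide in series B and C but not in series D. Slide and protocol cannot be told apart in the series D pair. Samples of a pair deviated together, so a fit within series is given beside the unpaired one.

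Among the 7 arrays, that of iTBS replicate 4 stands apart. A patch of it, between spot rows 135 and 237 and columns 70 and 104, read dim: 2428 of 58717 spots, 4.14%, had a local median more than 0.5 below the same spots' level over the 55 arrays, down to 4.35 below. On this array 305 probes lay more than 3 log2 units below every other of the 7 arrays, and all 305 sat in the patch, while the other 6 arrays had 0 to 6 such probes. The patch covers probes of 818 genes and 22 of the genes selected by the naming rule, and values without it are given beside the members that rest on it. Counts over the 3 pairs are given without it for the lists where they changed, over the genes that still have a probe in each pair. Other arrays of the fits had dim areas overlapping the patch in position. They were 1 Hz 8 h replicate 1 (3233 spots, 5.51%) and iTBS 2 h replicate 3 (543 spots, 0.925%). Fits without the patch also leave out the shifted areas of other arrays.

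**Figure D1:**
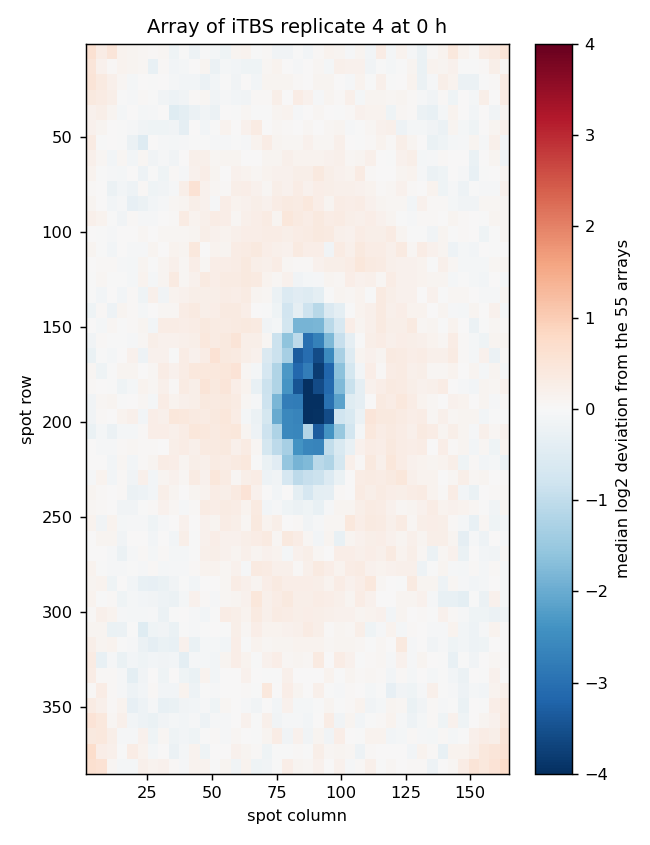
Map of the iTBS replicate 4 array by spot row and column, coloured by the median, in small blocks of spots, of its scaled log2 signal minus the median of 55 arrays. The dim patch lies between rows 135 and 237, and no spot outside it has a local median more than 0.5 below the other arrays, while 80 spots are more than 0.5 above.

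No transcript passed the test between the protocols at 0 h. Of 35694 probes tested, 0% passed an adjusted p under 0.05 in limma (count 0, smallest adjusted p 1.00), and 529 had an unadjusted p under 0.05, 297 higher and 232 lower in iTBS. Taken as 1 probe a gene, 162 of 13850 genes, 1.17%, had an unadjusted p under 0.05. Within series 0 probes passed as well, with a smallest adjusted p of 0.165 in limma and 2851 probes at an unadjusted p under 0.05; 352 genes (2.54%) were on the higher side and 613 (4.43%) on the lower side. Of those 613 lower genes, 338 lie in the dim patch; with the patch left out, 301 genes were lower and 367 higher at an unadjusted p under 0.05. The criteria of the study's methods, as rebuilt here from their description, likewise called 0 probes for this contrast. The rebuilt criteria were not checked against a contrast that the study reported. All that follows describes differences that did not pass, beside what the same measure gave over all 13850 genes.

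The whole transcriptome was close to level between the protocols: the middle 90% of genes had differences between -0.59 and 0.45, with a median of -0.01. Of the 13850 genes 47.4% were higher in iTBS, which is the background for the counts of members higher on the scaled signals. Arrays of the groups did not overlap for 142 genes with iTBS higher (1.03%) and 93 with iTBS lower (0.671%). In all 3 matched pairs iTBS was higher for 1975 genes (14.3%) and lower for 2403 (17.4%). These shares are the background for each count over pairs on the scaled signals below. They varied with brightness. Over 10 equal bins of mean level, 4.19 to 41.4% of genes were higher in all 3 pairs and 3.25 to 24.8% lower. Without the patch the shares were 14.5% and 16.9% of 13032 genes. Other scalings have their own background. With each array's 75th percentile subtracted 18.9% of genes were higher in all 3 pairs and 13.6% lower. The shares were 13.3% and 16.3% after quantile normalization, and 14.7% and 13.04% under normexp background correction. Over all arrays 7220, 6530 and 7491 of the 13850 genes were higher on these scales, in that order.

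The immediate-early transcription factors leaned towards lower levels after iTBS when arrays of 1 series were set against each other. Of 25 tested, 10 were higher and 15 lower in iTBS over all arrays, with a median difference of -0.09. In the matched pairs 0 of 25 were higher in all 3 (14.3% of all genes) and 9 were lower in all 3 (17.4% of all genes): Fos, Npas4, Atf3, Egr4, Junb, Klf4, Nr4a2, Csrnp1 and Srf. Apart from Fos, Npas4 and Junb, those names were chosen after their values were seen, as the members of that count. The lean was not particular to this list, where 36% were lower in all 3 pairs. That share was 38.1% for presynaptic release genes, 40% for postsynaptic scaffolds and 46.7% for clock genes. The immediate-early list's median difference was -0.37 in series B, -0.08 in series C and -0.22 in series D. With each array's 75th percentile subtracted 11 of 25 were lower in all 3 pairs (13.6% of all genes on that scale). After quantile normalization 12 were lower (16.3% of all genes). On both scales 0 were higher in all 3 (18.9% and 13.3% of all genes). Normexp background correction gave 6 lower (13.04% of all genes) and 1 higher (14.7%). With the dim patch left out 8 of 22 were lower in all 3 and 0 higher.

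The promoters below show the start region of the 4 of those 9 genes in which a script found TGACG, the core of the cAMP response element bound by CREB, searched on both strands. Each line gives the 250 bases before the RefSeq transcription start in GRCr8, 5′ to 3′, with that core in capitals (as CGTCA where it lies on the other strand). They lie at chr4:119607818-119608067, strand minus (Egr4), chr19:40080876-40081125, strand plus (Junb), chr3:62104888-62105137, strand minus (Nr4a2) and chr9:21923826-21924075, strand plus (Srf).
Egr4: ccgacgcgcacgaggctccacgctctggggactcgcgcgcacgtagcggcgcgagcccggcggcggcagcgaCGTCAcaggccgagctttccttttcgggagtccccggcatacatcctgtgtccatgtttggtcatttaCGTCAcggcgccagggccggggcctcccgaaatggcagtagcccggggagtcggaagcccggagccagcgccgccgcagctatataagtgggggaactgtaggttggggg
Junb: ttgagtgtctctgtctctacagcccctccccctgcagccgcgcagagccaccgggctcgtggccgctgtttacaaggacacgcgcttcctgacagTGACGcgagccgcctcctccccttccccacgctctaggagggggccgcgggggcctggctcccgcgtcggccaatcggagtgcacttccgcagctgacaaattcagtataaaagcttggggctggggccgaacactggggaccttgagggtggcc
Nr4a2: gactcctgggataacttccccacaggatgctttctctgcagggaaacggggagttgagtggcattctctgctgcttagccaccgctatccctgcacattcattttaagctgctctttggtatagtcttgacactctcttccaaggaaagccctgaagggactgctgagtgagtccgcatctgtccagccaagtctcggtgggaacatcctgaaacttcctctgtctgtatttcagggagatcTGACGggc
Srf: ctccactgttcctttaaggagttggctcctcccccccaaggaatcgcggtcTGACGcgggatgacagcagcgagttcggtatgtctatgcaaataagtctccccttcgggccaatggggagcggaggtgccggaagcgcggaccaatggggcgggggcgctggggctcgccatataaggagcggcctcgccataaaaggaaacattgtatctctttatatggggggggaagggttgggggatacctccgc
Of the 9 genes, 6 had a promoter in the table. Over the 17 immediate-early promoters listed, 12 held TGACG (70.6%), against 18.2% of 33469 rat promoters of the same length. The full palindrome TGACGTCA, which contains it, occurred in 4 of the 17 (23.5%) and in 1.59% of all, and in 0 of those 6. A match of letters is a description of the window and says nothing of binding in these cultures.

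Fos, a subunit of AP-1 and the standard marker of recent neuronal activity, had levels of 2.21, -1.03, 1.37 and 2.10 on iTBS replicates 1 to 4 and 3.21, 0.04 and 2.38 on 1 Hz replicates 1 to 3. The groups overlapped, because the series C arrays lay far below the rest in both. Within the pairs iTBS was lower by -1.005 in series B, -1.07 in series C and -0.28 in series D. The difference was -0.72 (SE 1.26) over all arrays and -0.90 (SE 0.31) within series, with an unadjusted p of 0.00723 and an adjusted p of 0.515 in limma. Sham cultures read 2.75, 2.31, 0.74 and 1.84, in the same range. Leaving out 1 array at a time moved the unpaired difference between -1.64 and 0.01; the ends came without 1 Hz replicate 2 and without iTBS replicate 2, the series C arrays.

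Npas4, a neuron-specific factor that responds to calcium influx, gave -1.13, -3.97, -1.58 and -0.91 on the iTBS arrays and -0.17, -3.63 and -0.31 on the 1 Hz arrays. It was lower in every pair, by -0.96, -0.33 and -0.60, but the within-series difference of -0.73 had an SE of 0.59, and the gene was not well above background on the series C arrays. Nr4a2, an orphan nuclear receptor, read 6.66, 5.21, 7.05 and 5.72 against 7.05, 5.69 and 6.18, with pair differences of -0.39, -0.49 and -0.46. Junb, an AP-1 partner, had pair differences of -0.51, -0.21 and -2.39; its spot is in the dim patch, and without that spot its within-series difference went from -1.004 to -0.48.

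Other members did not follow. Egr1, a zinc finger factor of the same early wave, was lower in series B and C (by -1.07 and -0.25) and higher in series D (0.13). Arc, a synaptic protein that drives removal of AMPA receptors, showed -0.28, 0.02 and -0.17, with levels from 1.98 to 5.11 after iTBS and from 1.96 to 5.39 after 1 Hz. For both the pairs disagreed in sign. Nr4a1 had pair differences of -0.36, -0.03 and 0.17, the last from a spot in the patch; without that spot its within-series difference went from -0.13 to -0.30 (unadjusted p = 0.0647).

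**Figure D2:**
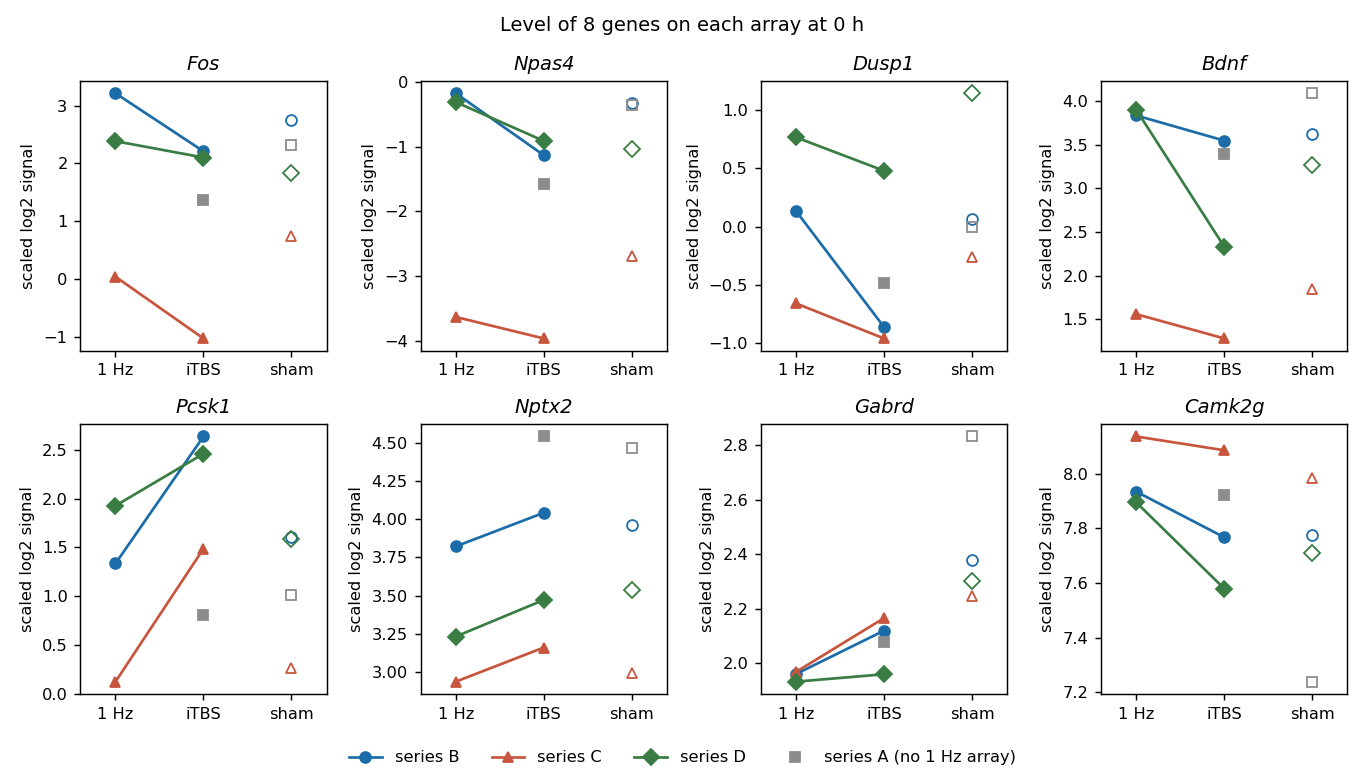
Scaled log2 level of 8 genes on each array at 0 h, with 1 Hz and iTBS arrays of 1 series joined by a line and sham arrays as open symbols. Fos is lower at the iTBS end of all 3 lines, by between 0.28 and 1.07, while the series C points lie below the rest in both groups; Nptx2 and Pcsk1 are higher at the iTBS end of all 3.

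Levels of these genes varied more between series than between protocols. The list's median level was 0.91 to 1.16 on the 5 arrays of series C and 3.23 to 4.08 on the 10 arrays of series A, B and D, over iTBS, 1 Hz, sham and untreated dishes alike. The list's median level itself was lower after iTBS than after 1 Hz in series B (3.44 against 4.07) and higher in series C (1.16 against 0.91) and D (3.76 against 3.63), opposite in sign to the median of the members' differences in series C and D. The median SD of a member was 0.82 among the iTBS arrays and 0.86 among the 1 Hz arrays, and its median standard error was 0.55 over all arrays and 0.23 within series.

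**Figure D3:**
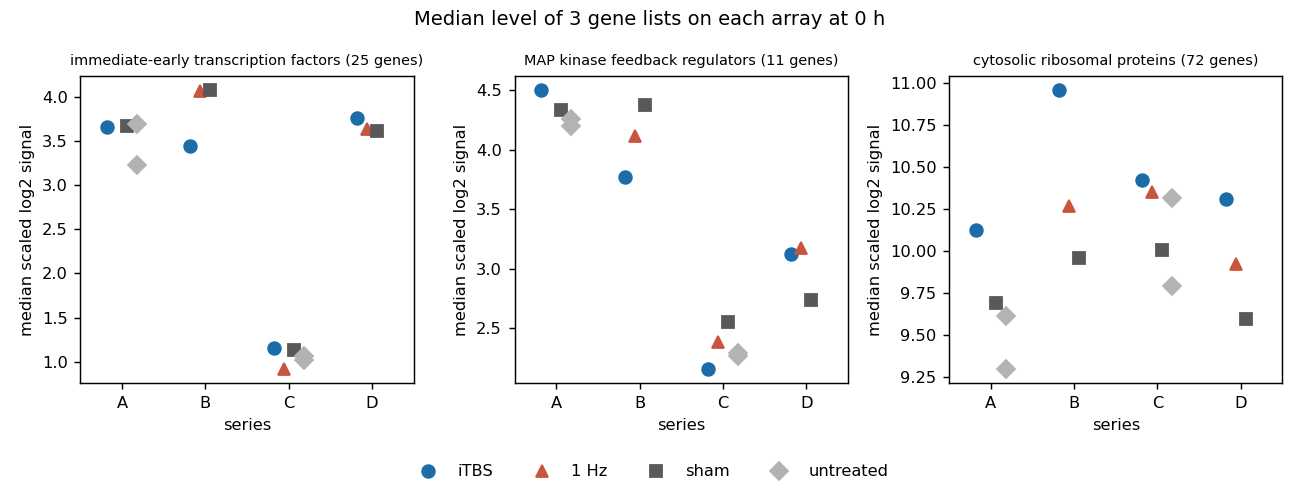
Median scaled log2 level of 3 gene lists on each of the 15 arrays at 0 h, by series, with a symbol for each treatment. Immediate-early genes sit at 0.91 to 1.16 in series C and at 3.23 to 4.08 elsewhere; ribosomal protein genes are highest on the iTBS array of each series on this scale, which quantile normalization does not keep as a difference from 1 Hz.

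Feedback regulators of the MAP kinase pathway, which are themselves transcribed on its activation, leaned the same way in the pairs. Of 11 tested, 5 were lower in all 3 pairs (17.4% of all genes) and 0 were higher in all 3, with list medians of -0.19, -0.21 and -0.20. Over all arrays 5 were higher and 6 lower, with a median of -0.02. Dusp1, a nuclear phosphatase that inactivates ERK, p38 and JNK, read -0.86, -0.96, -0.48 and 0.48 after iTBS and 0.13, -0.66 and 0.77 after 1 Hz. It was lower in the pairs by -0.996, -0.30 and -0.29, with a within-series difference of -0.51 (SE 0.20, unadjusted p = 0.0157 and adjusted p = 0.515 in limma). Dusp14 was lower by -0.11, -0.11 and -0.66. After quantile normalization 4 of 11 were lower in all 3 pairs and the unpaired median was 0.04. Subtracting the 75th percentile also left 4 lower in all 3, with an unpaired median of 0.06. Normexp correction left 4 as well, but the series D median was then 0.08. Over all arrays 7 of 11 were higher under normexp, with a median of 0.11.

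The effector genes went both ways. Of 20 activity-induced effectors, 12 were higher and 8 lower, 5 were higher in all 3 pairs and 4 lower in all 3; without the patch these were 5 and 2 of 17. Pcsk1, the proprotein convertase that cuts neuropeptide and neurotrophin precursors in secretory granules, had the largest difference of the list, with levels of 2.64, 1.49, 0.80 and 2.46 after iTBS and 1.33, 0.12 and 1.93 after 1 Hz. It was higher in the pairs by 1.30, 1.36 and 0.53, and the within-series difference was 0.88 (SE 0.45, unadjusted p = 0.0605). The lowest iTBS array was the unpaired series A array, so the groups overlapped. Nptx2, a pentraxin that gathers AMPA receptors, gave the most even pair differences, 0.22, 0.22 and 0.24, with an unpaired difference of 0.47 (SE 0.47) and an unadjusted p of 0.0401 within series.

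Bdnf, the activity-regulated neurotrophin, was lower in every pair, by -0.29, -0.28 and -1.57, with levels of 3.55, 1.28, 3.40 and 2.33 after iTBS and 3.84, 1.56 and 3.90 after 1 Hz. Its spot on the iTBS replicate 4 array is in the dim patch. With the patch left out the within-series difference was -0.49 in place of -0.73, and its unadjusted p was 0.0222 in place of 0.00191. The receptors Ntrk2 and Ntrk3 differed by 0.04 and 0.21, and Ntf4 was well above background on 1 of the 7 arrays. Of 10 neurotrophins and receptors, 5 were higher and 5 lower.

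Neuropeptides and proteins of the dense-core granule were mostly on the higher side after iTBS over all arrays. Of 17 tested, 14 were higher, with a median of 0.18, 6 were higher in all 3 pairs and 0 lower in all 3. The pair medians were -0.01 in series B, 0.11 in series C and 0.18 in series D, and the within-series median was 0.09. Carboxypeptidase E (Cpe), which trims peptide precursors, read 8.51, 8.63, 8.51 and 8.76 against 8.24, 8.38 and 8.63, higher in the pairs by 0.28, 0.25 and 0.13. Chgb, Cck, Scg2, Vgf and Pcsk1 were the other 5, named as members of that count. Without the patch 5 of 15 were higher in all 3 pairs. After quantile normalization 12 of 17 were higher and 2 were higher in all 3 pairs, with pair medians of -0.04, 0.09 and -0.01. Single arrays moved the list's median widely: it was 0.01 without 1 Hz replicate 2, 0.04 without iTBS replicate 4, 0.10 without iTBS replicate 3, 0.33 without iTBS replicate 2 and 0.42 without 1 Hz replicate 3.

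Genes for cytosolic ribosomal proteins, the most uniform group, were higher after iTBS on the scaled signals but not after quantile normalization. Of 72 tested, 71 were higher, with a median of 0.28 and a range of -0.18 to 0.47, and 66 were higher in all 3 pairs (61 of 64 without the patch); quantile normalization left 27 of 72 higher with a median of -0.02, and 12 higher and 11 lower in all 3 pairs. Subtracting the 75th percentile gave 60 of 72 higher with a median of 0.06, and normexp correction gave 44 with a median of 0.02. Within series 19 of the 72 had an unadjusted p under 0.05 on the higher side (2.54% of all genes). The pair medians were 0.67 in series B, 0.09 in series C and 0.39 in series D. The median over all arrays was 0.12 without iTBS replicate 1 and 0.14 without 1 Hz replicate 3, and up to 0.38 with other arrays left out.

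Rpl21, a protein of the large subunit, read 11.56, 11.05, 10.82 and 11.27 after iTBS and 10.83, 10.92 and 10.56 after 1 Hz, with 1 iTBS array below the highest 1 Hz array. Its difference was 0.40 (SE 0.29) on the scaled signals and -0.06 under normexp correction. Its start region, chr12:13386154-13386403, strand minus, is shown because ribosomal protein genes start within a pyrimidine run; the stretch CTTTCC, searched on both strands, is in capitals.
Rpl21: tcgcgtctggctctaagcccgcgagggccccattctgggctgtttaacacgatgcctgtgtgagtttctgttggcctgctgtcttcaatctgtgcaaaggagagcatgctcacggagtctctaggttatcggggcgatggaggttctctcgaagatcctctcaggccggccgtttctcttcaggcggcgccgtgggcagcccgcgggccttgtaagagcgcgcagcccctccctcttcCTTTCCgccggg
CTTTCC occurred in 18 of 61 ribosomal protein promoters (29.5%) and in 22.8% of all promoters. The ETS-type motif CCGGAAG occurred in 24.6% of the ribosomal promoters and 7.27% of all.

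Nuclear genes of oxidative phosphorylation behaved like the ribosomal genes. Of 33 genes for complexes III and IV and ATP synthase, 31 were higher, with a median of 0.21, and 24 were higher in all 3 pairs; after quantile normalization 14 were higher, with a median of -0.02. Of 33 complex I genes 27 were higher (median 0.11) and 23 were higher in all 3 pairs, against 18 higher with a median of 0.01 after quantile normalization. Atp5f1e, a small subunit of the ATP synthase rotor, gave the largest difference, 0.45 (SE 0.26), with pair differences of 0.88, 0.37 and 0.61. Ndufa4 was the member of its list whose groups did not overlap, at 9.94, 9.23, 9.19 and 9.26 against 9.14, 9.16 and 9.04, and normexp correction turned it to -0.07. Ndufa6, at -0.79, has its spot in the dim patch and was 0.24 without it. The median for complexes III and IV and ATP synthase was 0.04 without iTBS replicate 1 and 0.12 without 1 Hz replicate 3. That for complex I was 0.02 without iTBS replicate 1, 0.05 without 1 Hz replicate 3, 0.17 without 1 Hz replicate 2, 0.17 without iTBS replicate 4 and 0.21 without iTBS replicate 3. Genes for mitochondrial ribosomal proteins were split over all arrays, 33 higher and 35 lower, with a median of 0.00. In the pairs, however, 20 of 68 were higher in all 3 (14.3% of all genes) and 6 lower in all 3 (17.4%). After quantile normalization these counts were 14 and 5 (13.3% and 16.3% of all genes).

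**Figure D4:**
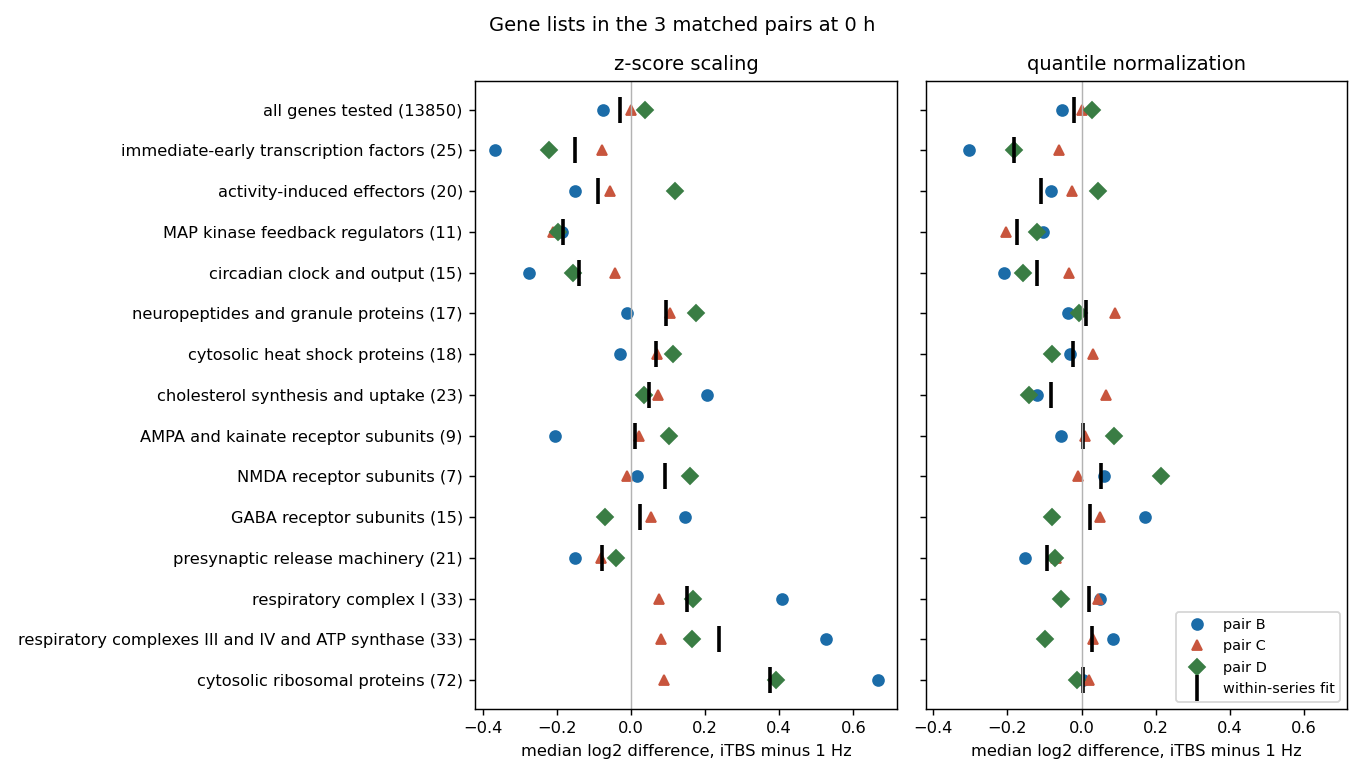
Median log2 difference, iTBS minus 1 Hz, of 14 gene lists and of all genes in each of the 3 matched pairs, with the within-series fit as a bar; scaled signals on the left, quantile normalization on the right. Ribosomal and respiratory lists lie above 0 in every pair on the left (0.09 to 0.67 for the ribosomal list) and about 0 on the right, while the immediate-early list lies below 0 in both.

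Differences varied with the brightness of the probes. Of the 72 ribosomal protein genes, 71 were in the brightest of 10 equal bins of all genes by mean level. In that bin, over 1385 genes of any kind, 79.6% were higher after iTBS, 41.4% were higher in all 3 pairs and the median was 0.10. In the fifth bin 32.8% were higher, with a median of -0.08. After quantile normalization the brightest bin had a median of -0.03. What part of the ribosomal difference is shared with brightness was not tested. Counts over pairs of the other lists were not set beside genes of like brightness either.

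**Figure D5:**
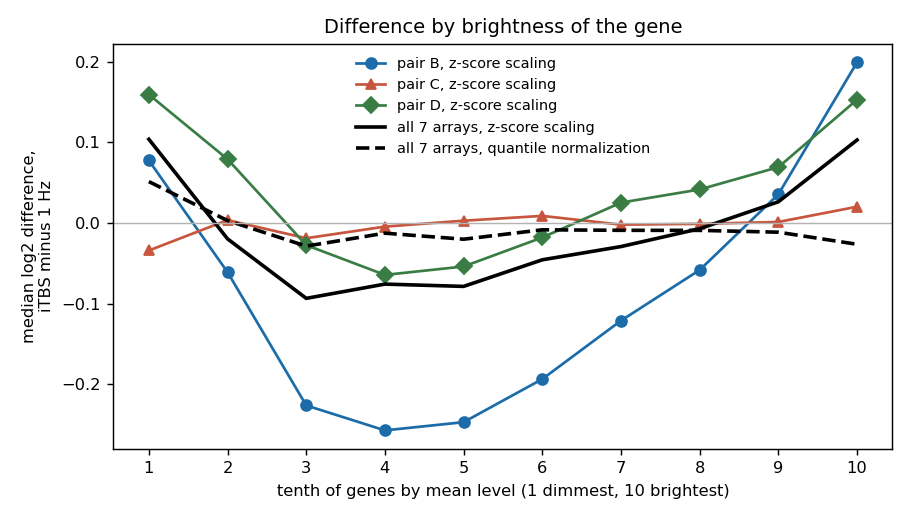
Difference, iTBS minus 1 Hz, in 10 equal bins of mean level over the 13850 genes tested; points are medians in the 3 matched pairs, the solid line all 7 arrays and the dashed line quantile normalization. On the scaled signals the median is 0.10 in the dimmest and in the brightest bin and lowest, at -0.09, in the third, and after quantile normalization all bins but the dimmest lie between -0.03 and 0.00.

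Cholesterol synthesis genes differed less within series than over all arrays. Of 23 tested, 20 were higher after iTBS with a median of 0.31, but the within-series median was 0.05. Msmo1, a sterol demethylase, read 11.85, 9.60, 11.27 and 9.60 after iTBS and 11.12, 9.38 and 9.60 after 1 Hz, with pair differences of 0.73, 0.22 and 0.00; it was chosen after its values were seen, for the largest difference of the list. Fdft1, squalene synthase, differed by 0.42, -0.04 and 0.60.

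Receptor subunits were near level. Among 9 AMPA and kainate receptor subunits 3 were higher and 6 lower, among 7 NMDA receptor subunits 4 were higher, among 8 metabotropic glutamate receptors 5, and among 15 GABA receptor subunits 11, with list medians between -0.03 and 0.08. Grin2d, an NMDA subunit typical of interneurons, was the receptor gene whose groups did not overlap, at 8.38, 8.13, 8.33 and 8.20 after iTBS and 8.02, 8.01 and 7.56 after 1 Hz, a difference of 0.40 (SE 0.40). Gabrd, the delta subunit of extrasynaptic GABA receptors, read 2.12, 2.16, 2.08 and 1.96 against 1.96, 1.97 and 1.93, a difference of 0.13 (SE 0.15). Grm3 differed by -0.10 (SE 0.27) and Camk2g by -0.15 (SE 0.26). Slc12a5, which carries chloride out of mature neurons and whose spot is in the patch, differed by 0.06 (SE 0.16) and by 0.12 without it, and Slc12a2, which brings it in, by 0.18 (SE 0.24).

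Presynaptic release genes were 10 higher and 11 lower over all arrays. In the pairs 8 of 21 were lower in all 3 (17.4% of all genes) and 1 was higher in all 3. Without the patch 7 of 19 were lower in all 3. Sv2a, a synaptic vesicle protein, was the exception whose groups did not overlap, at 5.48, 5.47, 5.63 and 6.03 after iTBS and 5.39, 5.31 and 5.46 after 1 Hz. Postsynaptic scaffolds were 5 higher and 10 lower, with 6 of 15 lower in all 3 pairs (5 of 14 without the patch), Dlg1 among them (-0.19, -0.35 and -0.76). Calcium/calmodulin kinases and partners were 9 higher and 7 lower with differences from -0.15 to 0.13.

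Ion channel genes with the largest differences had dim probes. Kcnj5, an inward rectifier opened by G proteins, was well above background on 1 of 4 iTBS arrays and 0 of 3 1 Hz arrays (unadjusted p = 0.0444, adjusted p = 1.00 in limma). Kcnj2, the classical inward rectifier, did not overlap between groups but was not well above background on any of the 7 arrays. Scn4b, a sodium channel beta subunit, read -2.01, -0.39, -1.46 and -1.20 against -1.01, -0.02 and -0.44, lower in each pair by -1.01, -0.37 and -0.76, with an unadjusted p of 0.0344. Over the lists 46 of 82 potassium channel genes and 20 of 36 sodium and calcium channel genes were higher.

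The 12 genes with the smallest unadjusted p among probes well above background on all 7 arrays were Kiaa1191, Or10ak14, Utp15, Aipl1, Taco1, Nhsl1, Nkx2-6, Ccna1, Pcgf3, Prlh, Mettl25 and Pnma1, with unadjusted p from 0.00453 to 0.0203 and an adjusted p of 1.00 each in limma. All but Pcgf3 and Mettl25 read between -2.54 and 2.16 on the scaled log2 axis. Pcgf3, a Polycomb subunit, and Mettl25 are in the patch: their differences of -0.74 and -1.14 became -0.17 and -0.13 without it.

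Groups did not overlap for Or10ak14 and Prlh. Or10ak14, an olfactory receptor gene, read -0.41, -0.67, -0.94 and -1.04 after iTBS and -1.78, -2.01 and -1.80 after 1 Hz, a difference of 1.10 (SE 0.40). Sham cultures gave -1.79, -1.53, -2.69 and -0.51, so 1 sham array stood among the iTBS arrays. Prlh, the precursor of prolactin-releasing peptide, read -0.09, -0.56, -0.38 and -0.05 against -0.56, -0.87 and -0.94, and the lowest iTBS array lay just above the highest 1 Hz array. Utp15, a factor in ribosomal RNA transcription and processing, was lower in each pair, by -2.32, -0.43 and -0.87; 1 Hz replicate 1, at 2.16, was far above the other arrays, and the difference of -1.09 became -0.31 without it. Taco1, a translational activator of a cytochrome oxidase subunit, was lower by -0.58, -0.32 and -0.67.

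Genes of stress and temperature gave no common direction. Rbm3 and Cirbp, RNA-binding proteins induced by mild cooling, differed by 0.12 (SE 0.29) and -0.08 (SE 0.19); the Rbm3 spot is in the patch, and its difference was 0.19 without it. Of 18 cytosolic heat shock genes 13 were higher with a median of 0.11, and Hsp90aa1 read 10.73, 9.70, 9.90 and 9.87 against 10.03, 9.73 and 9.43, with normexp correction turning its difference from 0.32 to -0.04. Hspa8, the constitutive chaperone of the HSP70 family, was the 1 member whose groups did not overlap, with a difference of 0.45. Of 20 genes of ER stress and the integrated stress response 9 were higher; Ddit3 and Hsp90b1, the lowest pair, are in the patch and had within-series differences of 0.03 and -0.06 without it. Over all arrays Ddit3 went from -1.03 to -0.58 and Hsp90b1 from -0.54 to -0.13 when their spots were left out.

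Of 15 clock genes 7 were lower in all 3 pairs and 0 higher in all 3; without the patch 6 of 14 were lower. Dbp, a clock output factor, was lower by -0.22, -0.04 and -0.39 in the pairs, with 5.70 and 5.75 on the series C arrays and 4.16 to 4.54 on the rest. Nr1d2 was lower by -0.30, -0.18 and -0.16 (unadjusted p = 0.0581 within series). Txnip, a thioredoxin inhibitor that follows glucose and FoxO activity, ranged from -0.68 to 4.12 after iTBS and from -0.50 to 3.46 after 1 Hz, by series again; its pair differences were -0.17, 0.66 and 1.09.

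Cell-type markers differed between series rather than between protocols. The summed linear level of 8 myelin markers was 806 and 970 on the series C arrays and 22.01 to 195 on the other 5 arrays. That of 6 oligodendrocyte progenitor markers was 259 and 291 in series D and 947 to 1374 on the rest, and that of 12 endothelial, mural and fibroblast markers was 445 and 447 in series D and 41.1 to 101 on the rest. In bulk RNA, fewer cells of a type and less RNA per cell cannot be told apart. Sums for 12 neuron markers were 1036 to 1797 after iTBS and 1133 to 1326 after 1 Hz, and for 10 astrocyte markers 1693 to 2974 and 1871 to 2808. Rbfox3, a nuclear marker of neurons with its spot in the patch, differed by -0.54 with that spot and -0.53 without it. Fgfr3, an astrocyte receptor, read 5.41, 5.15, 4.93 and -0.48 after iTBS, and its difference of -1.19 was 0.22 without the last spot.

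Microglial genes were on the higher side, most of them at the edge of detection. Of 8 tested, 6 were higher with a median of 0.54, and 5 were higher in all 3 pairs (14.3% of all genes); 3 of the 8 were well above background on all 7 arrays. C1qa, a complement subunit made by microglia, read -4.32, -3.68, -1.21 and 0.96 after iTBS and -4.58, -4.53 and -2.50 after 1 Hz, so that iTBS replicates 3 and 4 were high and replicates 1 and 2 at the level of 1 Hz. C1qc, which is not in the list, was well above background on 2 of 4 iTBS arrays and 0 of 3 1 Hz arrays. The 2 members lower after iTBS were P2ry12, at -0.37 and well above background on all 7 arrays, and Csf1r, at -0.07. Sham arrays covered the same span for C1qa, from -4.73 to 0.98. Summed microglial levels were 23.3 to 50.99 after iTBS and 19.7 to 36.8 after 1 Hz. Cx3cr1 weighed most in these sums, with mean levels of 4.92 after iTBS and 4.70 after 1 Hz, far above the other members. Dlx2, an interneuron factor, was well above background on 4 of 4 iTBS and 0 of 3 1 Hz arrays. Its difference was 0.70 (unadjusted p = 0.191 in limma). Sham cultures had a mean Dlx2 level of -1.68, above the mean after iTBS. The interneuron markers as a list were split. Of 9 tested, 5 were higher after iTBS, Dlx2 among them, and 4 lower, with a median of 0.06. Dlx1, a related factor, was among the lower ones, at -0.52.

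At later times the same contrast rests on other arrays. Those of iTBS 2 h replicate 3 and 1 Hz 8 h replicate 1 had dim areas, which are kept in the values below. For the immediate-early list the median difference between iTBS and 1 Hz was -0.09, 0.69, -0.07, -0.04 and -0.12 in order of time (0 h, then 2, 8, 24 and 48 h). The 2 h value leaves out 1 Hz replicate 2, whose array had a misplaced grid. The 1 Hz arrays left at 2 h came from series C and D, and the iTBS arrays from series A to D. Immediate-early levels at 0 h lay far lower in series C. Series and protocol therefore cannot be told apart in the unpaired 2 h values. At 8 and 24 h the groups also differed in their series. Fos differed by -0.72, 0.97, 0.07, -0.13 and -0.40 in the same order, and Npas4 by -0.52, 1.71, -0.07, -0.43 and -0.84. The difference at 0 h minus the mean of the later ones was -0.84 (SE 1.42) for Fos. The ribosomal list had medians of 0.28, 0.23, -0.18, 0.20 and 0.31. Over all probes 0 had a 0 h difference that set itself apart from the later times at an adjusted p under 0.05 in limma, and 491 did at an unadjusted p under 0.05. Or10ak14 was among the latter, with 0.21, -0.47, -0.12 and -0.39 at the later times. Its difference of differences was 1.29 (SE 0.45, unadjusted p = 0.00628 in limma). The gene was named for its small p at 0 h, and this contrast contains the same 0 h difference, so its p is no separate evidence.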

How the data were processed

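Total RNA from 56 cultures was hybridised to one-colour (Cy3) Agilent rat arrays. Per the file headers, the deposited scanner files hold the processed signal intensity of each spot from Agilent Feature Extraction 12.0.3.1, with the probes placed on build rn4; the authors' own table holds z-scores, a score made within each array from log2 signals, which own values matched within 0.0050. Here, spots of a probe were averaged on the log2 scale of the deposited intensity (outlier spots left out), converted to z-scores within each array as in the study's methods, and brought back to log2 units by the arrays' median SD, 4.06. Symbols came from RefSeq (GRCr8) through probe accessions, which named 21109 of 45598 probes (46.3%). Group means were fitted with limma 3.58.1 in R 4.3.3 on 55 arrays, because 1 array had a misplaced grid, for the 35694 probes well above background on at least 3 of them. An adjusted p (Benjamini-Hochberg) under 0.05 was called. The second fit added the series at each time as a block.

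Within 0 h, deviations of arrays of 1 series correlated at 0.516 to 0.524 in the 3 pairs, and those of other pairs at -0.345 to 0.168. Groups came from titles, and series from the sample numbers in the descriptions. The comparison, gene lists and named genes were chosen with earlier results of these data known. Named genes are those that pass, then up to 12 with the smallest p, 16 fixed genes (of which Hspa1b and Dnajb1 had no probe with that symbol), and the 2 members of each list with the smallest p, each by its brightest probe. The study's criteria were taken as a z-test p under 0.05, a z-ratio beyond 1.5, a false discovery rate under 0.30, a mean z-score above 0 and a one-way ANOVA p under 0.05. The code was tested on simulated data. Alternatives were other scalings, filters, array sets and blocks, and each replicate left out; leaving out areas of locally shifted signal (a running median over 13 rows and 7 columns beyond 0.5) was added after seeing the data. The file's mean signals were not used, and normexp took median signals with an offset of 50. Some items are not reported here.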

Additional observations from a re-analysis of the deposited data

Results flagged for a closer look

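Among the 4 iTBS arrays, 6 of 95 named genes and 4 of 37 list medians had 1 array far from the other 3, by the gap to its nearest neighbour as a share of the group's range; chance alone gives about 1 in 20. Fgfr3 (0.919) and Mettl25 (0.977) were low on replicate 4, where both spots lie in the dim patch. Pcna, a replication clamp, was low on replicate 4 (0.908) and Pgk1, a glycolytic enzyme, high on it (0.865), both outside the patch. Dbp was high on replicate 2 (0.979), and Ndufa4 was high on replicate 1 (0.912). The median level of the immediate-early transcription factors was low on replicate 2 (0.878), as was that of the calcium/calmodulin kinases and partners (0.836). The median of the oligodendrocyte progenitor markers was low on replicate 4 (0.963) and that of the neuron markers low on replicate 1 (0.897). For Dbp, the immediate-early list and the progenitor markers, the 1 Hz array of the same series lay to the same side of its own group.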

How the results depend on the processing

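The count of 0 probes held under all alternatives run for the 3 fits but 1: without 1 Hz replicate 2, 1 probe with no symbol passed (adjusted p = 0.0395 in limma, difference -3.09), which was well above background on 1 of 4 iTBS arrays and 2 of 3 1 Hz arrays. The number of probes at an unadjusted p under 0.05 ran from 120 (well above background on all 7 arrays) to 2851 (series at each time as a block), against 529. With the replicate block 0 probes passed: 0 with the series, 0 with the 3 matched pairs and 0 with the title replicate numbers, which paired 2 of their 3 pairs within a series (correlations 0.52, 0.52 and -0.12) and are taken as shared numbers only; this block gave 1529 probes at an unadjusted p under 0.05. No block changed a call. The median of the ribosomal list was -0.0178 after quantile normalization. That of the immediate-early list ran from -0.605 (without 1 Hz replicate 2) to 0.222 (without 1 Hz replicate 1) as single arrays were left out. Calm3 turned to -0.0616 under quantile normalization, and under normexp Hsp90aa1 turned to -0.0425, Ndufa4 to -0.0673 and Rpl21 to -0.0599. Clk1 (0.0708), Rorb (0.108), Ndufa6 (0.24) and Fgfr3 (0.216), whose spots lie in the dim patch, turned without iTBS replicate 4, with the patch left out and with the title-number block, which drops that array; as single arrays were left out they ran from -0.594, -0.777, -1.26 and -1.75 up to those values. Txnip ran from -0.905 (without 1 Hz replicate 1) to 1.34 and Grm6 from -0.00376 (without 1 Hz replicate 2) to 0.553; the cause was not tested. The within-series count at an unadjusted p under 0.05 was 1673 without iTBS replicate 4 and 1461 without 1 Hz replicate 3, and the unpaired one 982 without iTBS replicate 2 and 858 without iTBS replicate 3. Small groups, dim probes and series differences limit what 4 against 3 arrays can show.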
